A study of Mus musculus with 25 samples.

Results

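Solute carriers are the membrane proteins that move small molecules, such as amino acids, metal ions and vitamins, across the plasma membrane and the membranes of organelles. 6 of their genes were followed through mouse liver regeneration after partial hepatectomy (PHx), the surgical removal of the left lateral and median lobes. The 6 genes are Slc6a6, Slc30a3, Slc30a5, Slc35b4, Slc25a32 and Slc25a40. They were chosen by name. The rule took every mRNA probe whose gene name starts with Slc in the rows at hand of the study's list of regulated transcripts, without Slc1a4, Slc37a4 and Slc51b, with 1 probe per gene. This gave 6 of the 1170 named mRNA genes on 1719 mRNA probes in those rows, and 6 of the 35979 array probes with values. Each of the 6 genes had 1 probe. The rows at hand cover the study's clusters 1 to 3 and 285 mRNA probes of its cluster 4, and solute carriers in other rows were not analysed here, so every count below describes these rows alone. The rule used no measured value, but the study had put every transcript in that list because it changed on these same arrays, so a change of these genes, or its direction, is no independent evidence.

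Livers came from male Balb/c mice, labelled 8 weeks old, that underwent PHx and were killed 4, 12, 36 or 72 hours later, or that underwent sham surgery. Each group held 5 mice, and the liver RNA of each mouse was hybridised in 1 colour (Cy3) to 1 array with probes for mRNAs and putative lncRNAs. The lobes removed at PHx were missing from the PHx livers and present in the Sham livers. All 5 Sham livers were taken 4 hours after surgery and served as the control of every time. At 12, 36 and 72 hours, the effect of PHx and that of the longer time since the operation cannot be told apart. Values are log2 of the deposited intensity of a probe, and a log2 difference of 1 is a doubling.

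The arrays were alike in overall signal. The median intensity was 97.7 to 102.7 over the 25 arrays, and array pairs of 1 group correlated at 0.9812 to 0.9963 across probes. None of the 30 sets of 5 arrays, 1 for each solute carrier in each group, held an array set apart from the other 4 by Dixon's test. All 6 probes were brighter in every group than the dimmest 30% of probes, which lay below 6.08 to 6.09 on the log2 scale. Slc30a3 was the dimmest of the 6, at percentile 54.9 of all probes in Sham, with a mean intensity of 118.9, not far above the array medians. Whether its signal in liver stands above background was not tested. The named rows held 6 hepatocyte marker genes (F2, F9, Crp, Arg1, Cpt1a and Cyp2c50). All 6 were lower than in Sham at 4, 36 and 72 hours, and 4 of 6 at 12 hours. The study had chosen these rows for change, so markers that it did not call were not at hand. Of the 1719 mRNA probes in these rows, 42.8%, 53.6%, 50.9% and 52.3% were lower at 4, 12, 36 and 72 hours. Over all probes the shares were 6.35%, 15.1%, 12.5% and 13.1%. On the Sham arrays the intensities of these markers summed to 224300 to 249200. The sums after PHx were lower on every array, with 138600 to 175000 (4 hours), 143300 to 165600 (12 hours), 142900 to 163700 (36 hours) and 130100 to 163400 (72 hours). In liver tissue, fewer cells of a type and less RNA per cell cannot be told apart. The part of these markers, and of those of other cell types given at the end, in the courses of the solute carriers was not tested.

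Solute carrier proteins are grouped into numbered families by sequence, and members of a family often share a kind of cargo. The SLC6 family couples the uptake of amino acids and related compounds to sodium at the plasma membrane. The SLC30 family, also called ZnT, moves zinc out of the cytosol into organelles or out of the cell. The SLC35 family brings nucleotide sugars into the Golgi apparatus and the endoplasmic reticulum, where glycosylation enzymes use them. The SLC25 family sits in the inner membrane of mitochondria. In liver, taurine taken up by SLC6A6 is used to conjugate bile acids.

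All 6 solute carriers changed with time after PHx, but the study had listed them for change on these arrays at like thresholds. This outcome was therefore largely fixed in advance. The rule asked for an adjusted p under 0.05 in the F test of limma over the 4 comparisons with Sham, together with an R-squared of the group means no lower than 0.6, and 32.2% of all probes met it. The adjusted p ran from 3.82e-11 for Slc6a6 to 3.4e-06 for Slc35b4, and the R-squared was 0.93 and 0.776 for these genes. The genes went different ways. At 36 and 72 hours, Slc6a6, Slc25a40, Slc30a3 and Slc35b4 were higher than in Sham, while Slc30a5 and Slc25a32 were lower. The sizes differed too: Slc6a6 was 2.54 times its Sham level at 72 hours, and Slc25a32 was 0.443 times its Sham level.

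**Figure D1:**
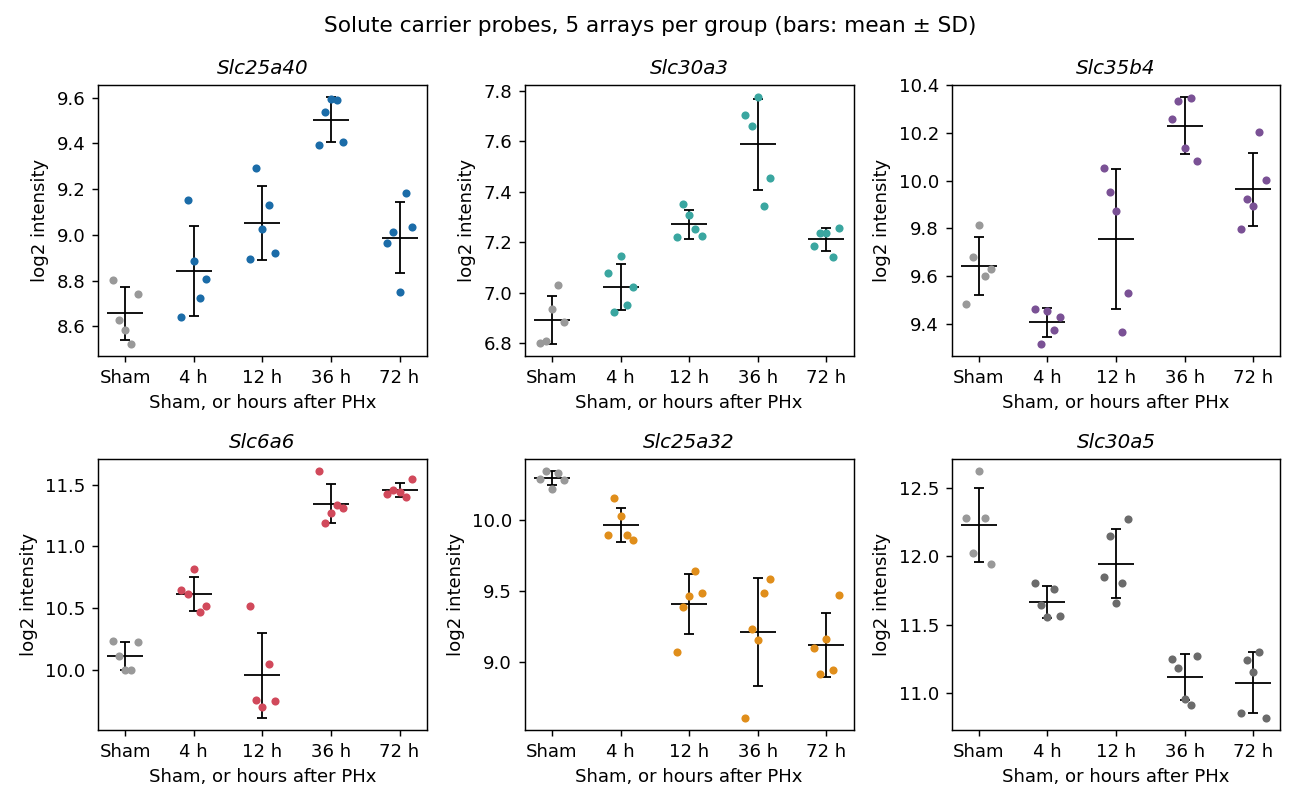
Log2 intensity of the 6 solute carrier probes (vertical axes, 1 scale per gene) on each of 25 arrays, in Sham livers and at the 4 times after PHx. Points are single livers and bars are the mean ± SD of 5. Slc6a6 lay at 11.40 to 11.55 at 72 hours and Slc25a32 at 8.91 to 9.48.

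Slc6a6 encodes TauT, the sodium-dependent transporter that takes taurine into the cell. It rose at 4 hours, was not called different at 12 hours and rose further at 36 and 72 hours. The log2 intensity of Slc6a6 was 10.23, 10.11, 9.997, 9.998 and 10.22 on the Sham arrays. At 4 hours after PHx it was 10.65, 10.61, 10.82, 10.46 and 10.51, and at 12 hours 10.52, 9.75, 9.70, 10.05 and 9.75. The 4 hour arrays all lay above the Sham arrays, whereas at 12 hours 3 arrays lay below all Sham arrays and replicate 1 lay above them all. At 36 hours it was 11.61, 11.19, 11.27, 11.34 and 11.32, and at 72 hours 11.43, 11.46, 11.44, 11.40 and 11.55. These 10 arrays all lay above every array of the other 3 groups. Relative to Sham, the log2 fold change was 0.50 ± 0.12 (SE, limma adjusted p = 0.00433) at 4 hours and -0.16 ± 0.12 (SE, limma adjusted p = 0.332) at 12 hours. It was 1.23 ± 0.12 (SE, limma adjusted p = 9.34e-09) at 36 hours and 1.34 ± 0.12 (SE, limma adjusted p = 3.59e-09) at 72 hours.

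The step between 4 and 12 hours was itself a fall of Slc6a6. Its log2 fold change at 12 hours over 4 hours was -0.66 ± 0.12 (SE, limma adjusted p = 7.04e-05), although 12 hour replicate 1, at 10.52, overlapped with the 4 hour arrays. Without that array, the log2 fold change at 12 hours over Sham was -0.30 with a limma adjusted p of 0.00988, a fall that passes the threshold. From 12 hours on, the gene turned up. Its log2 fold change at 36 hours over 12 hours was 1.39 ± 0.12 (SE, limma adjusted p = 8.28e-10), or 2.63-fold. The 72 hour arrays overlapped with the 36 hour arrays, with a log2 difference of 0.11 and a 95% interval of -0.13 to 0.35. The study had placed Slc6a6 in its cluster 4. Among the 285 mRNA probes of that cluster at hand, it ranked 7 from the top at 4 hours and 117 at 72 hours in log2 fold change over Sham.

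Slc30a5 encodes ZnT5, which moves zinc into the early secretory pathway, where zinc-requiring enzymes are loaded. It fell at 4, 36 and 72 hours. The log2 intensity of Slc30a5 was 12.28, 12.02, 12.62, 12.28 and 11.94 on the Sham arrays. At 4 hours it was 11.81, 11.64, 11.56, 11.76 and 11.57, and at 12 hours 11.85, 12.15, 11.66, 11.81 and 12.28. All 4 hour arrays lay below all Sham arrays, and the 12 hour arrays overlapped with both groups. At 36 hours it was 11.25, 11.18, 10.96, 10.91 and 11.27, and at 72 hours 10.86, 11.25, 11.16, 11.30 and 10.82. These later arrays all lay below every earlier one. Relative to Sham, the log2 fold change of Slc30a5 was -0.56 ± 0.13 (SE, limma adjusted p = 0.004) at 4 hours and -0.28 ± 0.13 (SE, limma adjusted p = 0.104) at 12 hours. It was -1.11 ± 0.13 (SE, limma adjusted p = 2.76e-07) at 36 hours and -1.15 ± 0.13 (SE, limma adjusted p = 2.04e-07) at 72 hours.

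The 12 hour value of Slc30a5 depended on single livers. Without Sham replicate 5, the lowest Sham array, the log2 fold change at 12 hours was -0.35 with a limma adjusted p of 0.0454. Without 12 hour replicate 5, the highest of its group, it was -0.36 with a limma adjusted p of 0.0372. Without Sham replicate 3, the highest Sham array, it was -0.18 and not called. The return between 4 and 12 hours was a log2 difference of 0.28 ± 0.13 (SE, limma adjusted p = 0.118) and was not called. The fall between 12 and 36 hours was called, with a log2 fold change at 36 hours over 12 hours of -0.83 ± 0.13 (SE, limma adjusted p = 1.42e-05). The groups did not overlap. The 72 hour arrays overlapped with the 36 hour arrays, with a log2 difference of -0.04 and a 95% interval of -0.31 to 0.23.

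Slc30a3 encodes ZnT3, known for loading zinc into synaptic vesicles of neurons. Its probe was the dimmest of the solute carriers followed here, and whether the signal stands above background was not tested. Slc30a3 rose at 12, 36 and 72 hours, with its highest mean at 36 hours. The log2 intensity of Slc30a3 was 6.80, 6.81, 6.93, 7.03 and 6.88 on the Sham arrays. At 4 hours it was 7.08, 6.92, 7.14, 6.95 and 7.02, and at 12 hours 7.22, 7.35, 7.31, 7.25 and 7.22. The 4 hour arrays overlapped with Sham, while all 12 hour arrays lay above both groups. At 36 hours it was 7.71, 7.66, 7.78, 7.34 and 7.46, and at 72 hours 7.19, 7.24, 7.24, 7.14 and 7.26. The 36 hour mean was the highest, and all 72 hour arrays lay below the 36 hour arrays and above Sham. The log2 fold change over Sham was 0.13 ± 0.07 (SE, limma adjusted p = 0.27) at 4 hours and 0.38 ± 0.07 (SE, limma adjusted p = 0.000129) at 12 hours. It was 0.70 ± 0.07 (SE, limma adjusted p = 2.97e-08) at 36 hours and 0.32 ± 0.07 (SE, limma adjusted p = 0.000938) at 72 hours. Successive steps of Slc30a3 were all called after 4 hours, with a log2 difference of 0.25 between 12 and 4 hours (limma adjusted p = 0.00818), 0.32 between 36 and 12 hours (limma adjusted p = 0.00092) and -0.38 between 72 and 36 hours (limma adjusted p = 0.000624).

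The promoters of these zinc transporters are shown because the genes belong to 1 family and moved in opposite directions. The sequences are those of RefSeq on build GRCm38.p6 and run, 5′ to 3′ on the gene's strand, over 300 bases around an annotated start. Slc30a3 has 2 annotated starts there, at chr5:31108195-31108494 (minus strand) and chr5:31093478-31093777 (minus strand), and Slc30a5 has 1, at chr13:100833378-100833677 (minus strand). Capitals mark matches, on either strand, to an E2F motif (TTTGGCGC or TTTCCCGC), to the E-box CACGTG and to the core of the metal response element (TGCGCNC or TGCACNC).
Slc30a3, start at chr5:31108195-31108494: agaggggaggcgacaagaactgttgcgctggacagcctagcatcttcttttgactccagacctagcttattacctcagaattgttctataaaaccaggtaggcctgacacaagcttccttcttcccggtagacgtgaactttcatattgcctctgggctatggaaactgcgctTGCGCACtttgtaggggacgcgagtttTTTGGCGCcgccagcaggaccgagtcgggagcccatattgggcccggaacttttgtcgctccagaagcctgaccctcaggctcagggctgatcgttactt
Slc30a3, start at chr5:31093478-31093777: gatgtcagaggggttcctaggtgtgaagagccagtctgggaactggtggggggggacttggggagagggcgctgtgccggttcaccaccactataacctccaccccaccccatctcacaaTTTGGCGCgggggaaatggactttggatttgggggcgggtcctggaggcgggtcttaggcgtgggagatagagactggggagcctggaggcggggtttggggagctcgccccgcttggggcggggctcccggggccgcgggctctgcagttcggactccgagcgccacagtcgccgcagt
Slc30a5, chr13:100833378-100833677: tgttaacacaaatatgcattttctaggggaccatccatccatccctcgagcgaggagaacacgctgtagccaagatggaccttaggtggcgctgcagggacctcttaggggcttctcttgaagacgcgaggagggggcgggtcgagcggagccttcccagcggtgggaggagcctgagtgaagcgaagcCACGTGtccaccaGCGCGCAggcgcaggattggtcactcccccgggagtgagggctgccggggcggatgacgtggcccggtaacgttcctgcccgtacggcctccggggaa

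Both Slc30a3 windows held TTTGGCGC, which begins at base -50 of the first sequence and at base -130 of the second, counted back from the start site. Of 32851 promoter windows in the reference, 1.56% held 1 of these E2F motifs. The Slc30a5 window held none of them. It held the E-box at base -61, as 7.15% of all windows did, and a metal response core on the reverse strand at base -48. That core, found in 25.7% of all windows, was also in 1 of the Slc30a3 windows, at base -77. No marked motifs overlapped. The windows of Slc25a40 (chr5:8422588-8422887, plus strand) and Slc35b4 (chr6:34177005-34177304, minus strand), which also rose, held none of the 3 motifs. The motifs were chosen with the expression values known, and a match says only that these letters stand in the window.

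Slc35b4 encodes a transporter that brings UDP-xylose and UDP-N-acetylglucosamine into the Golgi apparatus and endoplasmic reticulum. It rose at 36 and 72 hours, by 1.51-fold and 1.25-fold. The log2 intensity of Slc35b4 was 9.48, 9.68, 9.82, 9.60 and 9.63 on the Sham arrays. At 4 hours it was 9.46, 9.31, 9.46, 9.38 and 9.43, and at 12 hours 10.05, 9.95, 9.87, 9.37 and 9.53. All 4 hour arrays lay below all Sham arrays, the nearest being 9.46 at 4 hours and 9.48 in Sham, and the 12 hour arrays spread from below Sham to above it. At 36 hours it was 10.26, 10.33, 10.14, 10.35 and 10.08, and at 72 hours 9.80, 9.92, 9.90, 10.21 and 10.001. All 36 hour arrays lay above the Sham arrays, and the 72 hour arrays overlapped with both. The log2 fold change over Sham was -0.24 ± 0.10 (SE, limma adjusted p = 0.163) at 4 hours and 0.11 ± 0.10 (SE, limma adjusted p = 0.457) at 12 hours. It was 0.59 ± 0.10 (SE, limma adjusted p = 9.19e-05) at 36 hours and 0.32 ± 0.10 (SE, limma adjusted p = 0.0206) at 72 hours.

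The later call for Slc35b4 rested on single livers. Without Sham replicate 1, the lowest Sham array, the log2 fold change at 72 hours was 0.28 with a limma adjusted p of 0.0594. Without 72 hour replicate 4, the highest of its group, it was 0.26 with a limma adjusted p of 0.0711. Between 4 and 12 hours the gene was higher at 12 hours by a log2 difference of 0.35 ± 0.10 (SE, limma adjusted p = 0.0122). That call was not met when only these groups were fitted (limma adjusted p = 0.0556). The rise between 12 and 36 hours was 0.48 ± 0.10 (SE, limma adjusted p = 0.000813), with no overlap of the arrays.

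Slc25a32 encodes a carrier of the inner mitochondrial membrane known for bringing folate, and FAD, into the matrix. It fell at 12, 36 and 72 hours, to 0.542, 0.473 and 0.443 times its Sham level. Its Sham arrays were tightly grouped, with log2 intensities of 10.29, 10.35, 10.22, 10.33 and 10.28. At 4 hours it was 9.89, 10.15, 10.03, 9.89 and 9.86, and at 12 hours 9.07, 9.39, 9.47, 9.64 and 9.49. All 4 hour arrays lay below Sham, and all 12 hour arrays below those of 4 hours. At 36 hours it was 8.61, 9.24, 9.15, 9.48 and 9.58, and at 72 hours 9.10, 8.91, 9.16, 8.95 and 9.48. The 12, 36 and 72 hour arrays overlapped, and replicate 1 of 36 hours was the lowest of all 25. The log2 fold change over Sham was -0.33 ± 0.14 (SE, limma adjusted p = 0.131) at 4 hours and -0.88 ± 0.14 (SE, limma adjusted p = 1.47e-05) at 12 hours. It was -1.08 ± 0.14 (SE, limma adjusted p = 1.04e-06) at 36 hours and -1.17 ± 0.14 (SE, limma adjusted p = 3.67e-07) at 72 hours.

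Most of the fall of Slc25a32 lay before 12 hours. Between 4 and 12 hours the log2 fold change was -0.55 ± 0.14 (SE, limma adjusted p = 0.00266). The further differences were -0.20 between 36 and 12 hours (95% interval -0.48 to 0.08) and -0.09 between 72 and 36 hours (95% interval -0.37 to 0.19), and neither was called. Without replicate 1 of 36 hours, the lowest array, these differences were -0.05 and -0.24, still not called, and with other single arrays left out the difference between 72 and 36 hours was as small as -0.001. The 4 hour value was not called in the fit of all 25 arrays, which shares 1 spread over the 5 groups. Also without replicate 1 of 36 hours, the 4 hour difference from Sham had a limma adjusted p of 0.0423. The study listed this probe in its clusters 2 and 3.

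Slc25a40 encodes a mitochondrial carrier known for the import of glutathione into the matrix. It rose at 12, 36 and 72 hours and was 1.8 times its Sham level at 36 hours. The log2 intensity of Slc25a40 was 8.80, 8.63, 8.59, 8.52 and 8.74 on the Sham arrays. At 4 hours it was 8.64, 9.15, 8.89, 8.73 and 8.81, and at 12 hours 8.89, 9.29, 9.03, 9.13 and 8.92. The 4 hour arrays overlapped with Sham, and all 12 hour arrays lay above Sham. At 36 hours it was 9.40, 9.54, 9.60, 9.59 and 9.40, and at 72 hours 8.96, 9.01, 8.75, 9.18 and 9.03. All 36 hour arrays lay above every other array, whereas 72 hour replicate 3 lay within the Sham range. The log2 fold change over Sham was 0.19 ± 0.09 (SE, limma adjusted p = 0.239) at 4 hours and 0.40 ± 0.09 (SE, limma adjusted p = 0.00177) at 12 hours. It was 0.85 ± 0.09 (SE, limma adjusted p = 1.35e-07) at 36 hours and 0.33 ± 0.09 (SE, limma adjusted p = 0.00855) at 72 hours.

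The 36 hour level of Slc25a40 stood out from its neighbours in time. The log2 fold change was 0.45 ± 0.09 (SE, limma adjusted p = 0.000473) at 36 hours over 12 hours and -0.52 ± 0.09 (SE, limma adjusted p = 0.00048) at 72 hours over 36 hours, with no overlap in either. Between 4 and 12 hours the difference was 0.21 ± 0.09 (SE, limma adjusted p = 0.108) and was not called. Without 4 hour replicate 2, the highest of its group, it was 0.29 with a limma adjusted p of 0.0174. Slc25a40, Slc30a3 and Slc35b4 are the 3 genes that the study put in its cluster 1, and all 3 had their highest mean at 36 hours.

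The order of the 5 groups differed between the genes. For Slc6a6 the means ran, low to high, 12 hours, Sham, 4 hours, 36 hours and 72 hours. The neighbours 12 hours and Sham, and 36 and 72 hours, overlapped. For Slc25a40 and Slc30a3 the order was Sham, 4 hours, 72 hours, 12 hours and 36 hours. Of these neighbours, only the 36 and 12 hour arrays of Slc25a40 were apart. For Slc35b4 the order was 4 hours, Sham, 12 hours, 72 hours and 36 hours, and only 4 hours and Sham were apart. For Slc25a32 it was 72, 36, 12 and 4 hours, then Sham, with overlap among the later 3 times alone. For Slc30a5 it was 72 hours, 36 hours, 4 hours, 12 hours and Sham, and only 36 and 4 hours were apart.

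At 4 hours 1 of 6 solute carriers was higher (Slc6a6) and 1 lower (Slc30a5), against 6.12% and 6.35% of all probes. At 12 hours 2 were higher (Slc25a40 and Slc30a3) and 1 lower (Slc25a32), against 16.3% and 15.1%. At 36 hours and again at 72 hours, 4 were higher and 2 lower, against 13.6% and 12.5% of all probes at 36 hours and 15.1% and 13.1% at 72 hours. The 1719 mRNA probes of the study's list at hand had been chosen for change, so their shares called stand beside those of all probes. Of them 1.34% were higher and 42.8% lower at 4 hours, and 10.6% higher and 53.6% lower at 12 hours. At 36 hours 38.3% were higher and 50.9% lower, and at 72 hours 33.3% were higher and 52.3% lower. The 4 hour count was 4 of 6 when only the 2 groups compared were fitted, since Slc25a32 (limma adjusted p = 0.00683) and Slc35b4 (limma adjusted p = 0.0419) were then also lower.

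Between successive times the calls were as follows. At 12 hours over 4 hours, 2 of 6 were higher (Slc30a3 and Slc35b4) and 2 lower (Slc25a32 and Slc6a6), against 14.0% and 13.2% of all probes. At 36 hours over 12 hours, 4 were higher (Slc6a6, Slc25a40, Slc30a3 and Slc35b4) and 1 lower (Slc30a5), against 14.4% and 15.0%. At 72 hours over 36 hours, none of the 6 was higher and 2 were lower (Slc25a40 and Slc30a3), against 5.37% and 4.54%. Of the 1719 listed mRNA probes, 17.1% were higher and 23.3% lower in the first of these steps, 45.4% and 13.3% in the second, and 9.83% and 26.1% in the third. The median log2 fold change of the 6 genes over Sham was -0.05 at 4 hours, -0.02 at 12 hours, 0.64 at 36 hours and 0.32 at 72 hours. Over all 35979 probes the median lay between -0.01 and 0.00 at these times, and over the named mRNA genes between -0.30 and -0.25.

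**Figure D2:**
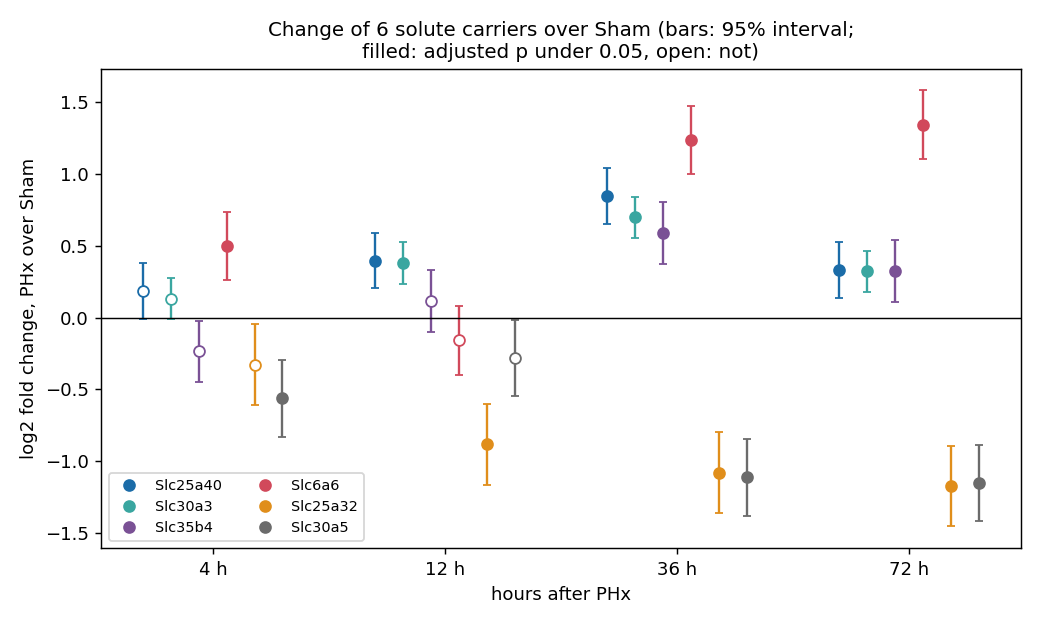
Log2 fold change over Sham of the 6 solute carriers (vertical axis) at the 4 times after PHx. Points are limma estimates with 95% intervals, filled at an adjusted p under 0.05 over all probes and open otherwise. At 36 and 72 hours all 6 are filled, with 4 above 0 and 2 below.

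Within 2 families, the genes moved apart on the same arrays. The log2 difference Slc30a3 minus Slc30a5 was taken on each array and compared with Sham. This removes any factor common to both probes of an array, but not a background added to each signal. In Sham the mean intensity was 118.9 for Slc30a3 and 4868.9 for Slc30a5. The difference was higher than in Sham by 0.70 at 4 hours, 0.66 at 12 hours, 1.81 at 36 hours and 1.48 at 72 hours. At every time all 5 PHx arrays lay above all 5 Sham arrays. Set to a Sham mean of 0, the Sham arrays ran over -0.35 to 0.28, the 4 hour arrays over 0.53 to 0.93 and the 12 hour arrays over 0.29 to 0.99. The 36 hour arrays ran over 1.52 to 2.16 and the 72 hour arrays over 1.18 to 1.78. At 4 hours Slc30a5 itself was at -0.56 and called, and Slc30a3 at 0.13 and not called.

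The mitochondrial carriers did likewise. The log2 difference Slc25a40 minus Slc25a32 was higher than in Sham by 0.51 at 4 hours, 1.28 at 12 hours, 1.93 at 36 hours and 1.51 at 72 hours. On the same scale the Sham arrays ran over -0.17 to 0.15, the 4 hour arrays over 0.39 to 0.64 and the 12 hour arrays over 1.07 to 1.54. The 36 hour arrays ran over 1.46 to 2.43 and the 72 hour arrays over 1.195 to 1.87. No PHx array overlapped with Sham. By a two-sided exact permutation test, each of the 8 differences had p = 0.00794, the smallest that 5 arrays against 5 can give, and 0.00794 after adjustment over the 8. The pairs were set with the study's clusters known, which place 1 gene of each pair among rising and the other among falling transcripts, so these directions are no independent evidence.

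**Figure D3:**
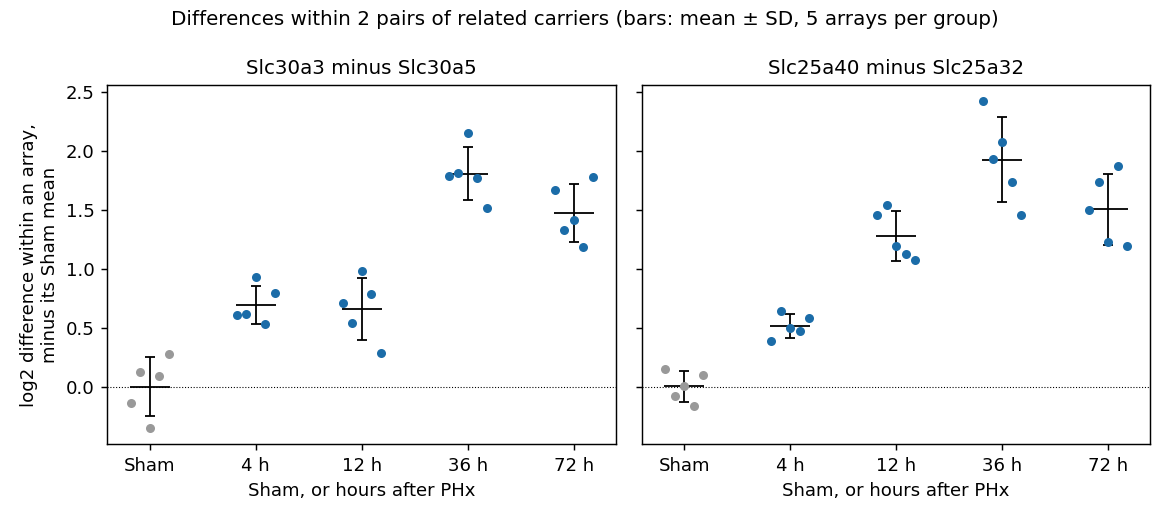
Log2 difference between 2 carriers of a family within each array, minus its Sham mean (vertical axis), for Slc30a3 minus Slc30a5 and Slc25a40 minus Slc25a32 in Sham and at each time after PHx. Points are single arrays and bars the mean ± SD of 5. All PHx arrays lie above all Sham arrays, with means of 1.81 and 1.93 at 36 hours.

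For each solute carrier, the 3 named genes with the most similar course were found among 1164 other named mRNA genes. Likeness was the root mean square difference over the 4 log2 fold changes over Sham, each a mean of 5 arrays, so a small value means a near copy of the course. For Slc25a32 they were Amigo2, a cell adhesion protein (0.043), 1110018G07Rik, now named Arel1 (0.077), and Hipk3, a protein kinase (0.117). Amigo2 had log2 fold changes of -0.35, -0.95, -1.06 and -1.22 at 4, 12, 36 and 72 hours. For Slc25a40 they were D10627, now named Zfp930 (0.063), Nmt2, an N-myristoyltransferase (0.076), and Exosc6, a subunit of the RNA exosome (0.091). For Slc30a3 they were Ipo9, a nuclear import receptor (0.06), Tcof1, a nucleolar protein of ribosome synthesis (0.06), and Nup205 of the nuclear pore (0.067).

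Slc30a5 was most like Cdc2l1, the kinase now named Cdk11b (0.069), Polr3gl, a subunit of RNA polymerase III (0.1), and Kti12 (0.1). Cdc2l1 had log2 fold changes of -0.47, -0.19, -1.06 and -1.16 at the 4 times. Slc35b4 was most like Nxt1, an mRNA export factor (0.052), Pds5b, a cohesin regulator (0.055), and Setdb1, a histone methyltransferase (0.062). Nxt1 was at -0.25 at 4 hours and 0.56 at 36 hours. Slc6a6 had no near copy among these genes. Its nearest were Dbf4, an activator of DNA replication (0.205), Foxm1, a transcription factor of mitotic genes (0.206), and Clic5, a chloride intracellular channel protein (0.207). None of the 3 had a log2 fold change at 4 hours above 0.25, where Slc6a6 had 0.50.

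Other genes of membrane transport in the named rows went both ways, and so did the listed mRNA probes. At 36 hours 13.6% of all probes were higher and 12.5% lower, and of the listed mRNA probes 38.3% were higher and 50.9% lower. All values given for these and the following genes are log2 fold changes over Sham. Of 6 other carriers and ABC transporters, 3 were higher and 1 lower than in Sham at 36 hours, with a median log2 fold change of 0.05. Flvcr2, a transporter of the major facilitator superfamily, rose by 2.15 (limma adjusted p = 8.59e-09). Abcd2, a peroxisomal transporter of very long chain fatty acids, fell at 12 hours to a log2 fold change of -1.13 (limma adjusted p = 0.000493) and rose at 72 hours to 2.24 (limma adjusted p = 7.84e-08). Npc1, which exports cholesterol from lysosomes, fell at 36 hours (-0.86, limma adjusted p = 2.66e-06). At 4 hours 1 of the 6 was called, and 3 were called when only these groups were fitted. At that time 6.12% of all probes were higher and 6.35% lower, and of the listed mRNA probes 1.34% and 42.8%. Of 4 ion pumps and subunits, 3 were higher and 1 lower at 36 hours, with a median of 0.42. Atp1b3, a subunit of the sodium pump, rose by 0.87 at 36 hours, and Fxyd1, a regulator of that pump, fell at 12 hours to -1.12. Atp6v0d2, a subunit of the vacuolar proton pump, was at -1.54 at 12 hours and 1.56 at 72 hours, both called.

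Of 9 ion channel genes, 3 were higher and 4 lower at 36 hours and 4 were higher and 4 lower at 72 hours, with medians of -0.11 and 0.01. Of all probes 13.6% were higher and 12.5% lower at 36 hours, and 15.1% and 13.1% at 72 hours. Of the listed mRNA probes 38.3% were higher and 50.9% lower at 36 hours, and 33.3% and 52.3% at 72 hours. Kcnn2, a calcium-activated potassium channel, fell at 12 hours to a log2 fold change of -1.88, and Itpr1, a calcium release channel of the endoplasmic reticulum, fell at 72 hours to -1.22. Trpc2 rose at 36 hours by 1.34 and Kcnk5, a potassium channel, at 72 hours by 1.40. The study chose these genes too for their change, so the counts describe its list and not membrane transport at large.

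**Figure D4:**
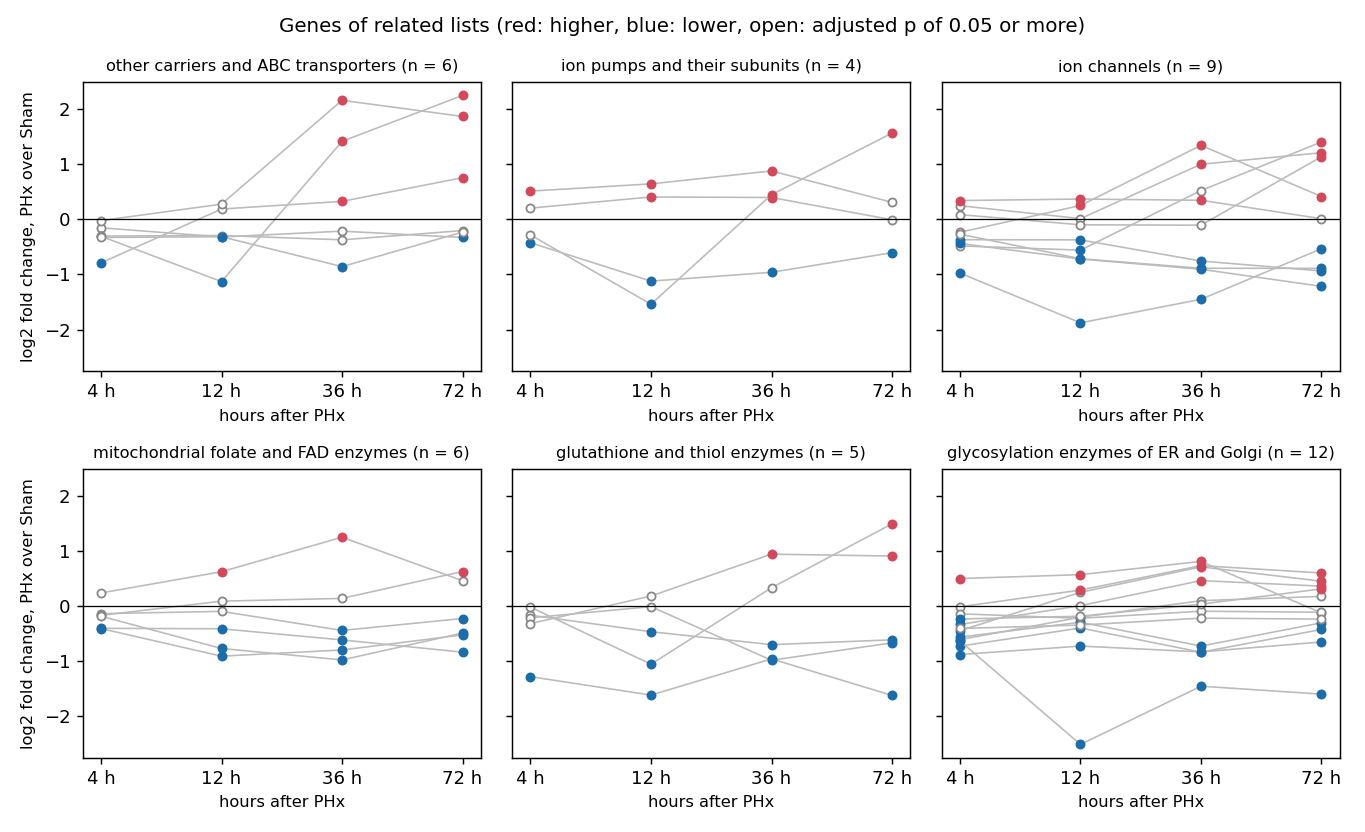
Log2 fold change over Sham (vertical axes) at the 4 times after PHx for the genes of 6 lists, 1 line per gene. Red points were higher and blue points lower at a limma adjusted p under 0.05, and open points were not called. Gne reached -2.51 at 12 hours and Abcd2 2.24 at 72 hours.

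Genes of 3 metabolic pathways were counted in the same way, and not every gene listed uses the cargo of a carrier described here. At 36 hours 13.6% of all probes were higher and 12.5% lower, and of the listed mRNA probes 38.3% were higher and 50.9% lower. Of 6 genes listed as mitochondrial folate and FAD enzymes, 4 were lower and 1 higher at 36 hours, with a median log2 fold change of -0.53. Sdhb, the iron-sulfur subunit of succinate dehydrogenase and itself no folate or FAD enzyme, fell at 12 hours to -0.91, and Acad10, of the acyl-CoA dehydrogenase family, fell at 36 hours to -0.98. Mthfd2, a mitochondrial folate enzyme, rose by 1.24 at 36 hours (limma adjusted p = 4.57e-06), when Slc25a32 stood at -1.08. Acad9, also of the acyl-CoA dehydrogenase family, rose by 0.62 at 72 hours (limma adjusted p = 1.87e-06). Of 5 genes of glutathione and thiol metabolism, 3 were lower and 1 higher at 36 hours, with a median of -0.70. Txnrd1, a thioredoxin reductase, was at -1.61 at 12 hours and -1.62 at 72 hours. Nfe2l2, which encodes the transcription factor NRF2, rose by 0.94 at 36 hours, and Nqo1, a quinone reductase, by 1.49 at 72 hours. Nqo1 fell at 12 hours to -1.06 (limma adjusted p = 5.46e-07), and Dpep1, a membrane dipeptidase of glutathione breakdown, fell at 36 hours to -0.98 (limma adjusted p = 1.41e-07).

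Of 12 genes listed as glycosylation enzymes of the endoplasmic reticulum and Golgi apparatus, 8 were lower and 1 higher at 4 hours, with a median of -0.43. At that time 42.8% of the listed mRNA probes were lower and 1.34% higher, and 6.35% and 6.12% of all probes. The median of the named mRNA genes was -0.26. At 36 hours 4 of the 12 were lower and 4 higher, with a median of -0.03. Gne, which starts sialic acid synthesis and is itself no enzyme of these organelles, fell at 12 hours to -2.51 (limma adjusted p = 1.34e-10). Alg2, a mannosyltransferase, fell at 4 hours to -0.88. St3gal1, a sialyltransferase, rose by 0.81 at 36 hours and Alg14 by 0.73. Xylt2, a xylosyltransferase, fell at 4 hours to -0.61 (limma adjusted p = 0.00104), when Slc35b4 was at -0.24 and not called. Hs2st1, a heparan sulfate sulfotransferase, was lower at 4 hours (-0.45) and higher at 36 hours (0.71), and Dolk, the dolichol kinase, likewise (-0.33 and 0.46).

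Markers of other cells, also from rows chosen for change, moved as well. Eln, an elastic fibre gene of mesenchymal cells, was higher at 12 and 36 hours (2.13 and 1.29) and lower at 72 hours (-1.87), while Col14a1 was lower at all 3 times. The intensities of both summed to 1840 to 2371 in Sham, 1569 to 2345 (4 hours), 3657 to 5233 (12 hours), 2529 to 3818 (36 hours) and 1098 to 1314 (72 hours). Of 5 immune cell markers, 2 (Bank1 and Icos) were higher and 3 (Spic, Nlrp3 and Lilrb3) lower at 36 and at 72 hours. Of all probes 13.6% were higher and 12.5% lower at 36 hours, and 15.1% and 13.1% at 72 hours. Bank1 and Icos were the dimmer ones, at percentiles 46.7 and 35.4 of all probes in Sham. Spic, Nlrp3 and Lilrb3 were at 64.1, 60.8 and 75.6. The intensities of the 5 immune cell markers summed to 885.2 to 1202 in Sham, 742.2 to 833.4 (4 hours), 754.6 to 830.3 (12 hours), 607.1 to 773.5 (36 hours) and 713.2 to 819.9 (72 hours). Of the endothelial markers Clec1b and Clec14a, both were lower at 4 and 12 hours, with a limma adjusted p of 0.0463 for Clec1b at 4 hours, and Clec1b alone at 36 and 72 hours. At 4 hours 1 of these 2 was called, not both, with median centring, with the background correction at an offset of 16, with the other variance model and with the replicate block. The sum of both was 1340 to 1606 in Sham, 1032 to 1177 (4 hours), 757.9 to 993.8 (12 hours), 873.2 to 1072 (36 hours) and 816.5 to 1148 (72 hours). Anxa4, the sole cholangiocyte marker at hand, was lower at 12 and 36 hours (-0.53 and -0.55), with intensities of 1075 to 1212 in Sham and 726 to 1095 (4 hours), 689.3 to 950.7 (12 hours), 694.9 to 892.4 (36 hours) and 845.9 to 1164 (72 hours). No marker of these lists was at 0.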

How the data were processed

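Livers of 25 mice in 5 groups were profiled, 1 single-colour array per liver. The file that the authors deposited gives a linear intensity for every probe on every array, already scaled between arrays. The scaling method is not named in the sources at hand. The vsn package is named in the methods, but the deposited intensities are not on its scale, so log2 was taken of the deposited values without further correction. After removal of 2 probes that held no value on any array, 35979 remained. No column of the table stayed without a sample.

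Group means were fitted over all 25 arrays in limma 3.58.1 (lmFit, then eBayes; R 4.3.3). P-values were adjusted by Benjamini-Hochberg over all probes, and a gene was called at an adjusted p under 0.05. The time course call used the F test of the same fit with Sham as baseline, plus an R-squared of 0.6 or more. Both thresholds follow the study's settings for maSigPro. That package was not run. Pairs of genes were compared by exact permutation of the arrays. Python 3.11.15 with pandas 2.3.3 and matplotlib 3.10.9 made the tables and figures. Simulated data were used to test the fit. Precision is limited by the number of arrays, 5 in each group.

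Gene names came from 1998 rows of the study's supplementary list, with 1943 distinct probes, and other rows were not used here. They cover the study's clusters 1 to 3 and 285 mRNA probes of cluster 4. The list holds only transcripts that the study had called on these arrays. The members, the gene lists and the motifs were chosen with earlier results of these data known. The genes named are the 6 members, the 3 named genes nearest in course to each, and from each list the 2 top rises and 2 top falls over Sham among the calls. From the list of glycosylation enzymes and from the marker lists, Xylt2, Hs2st1, Dolk and the other markers named, and Dpep1 from the glutathione list, were added after their values were seen. Promoters were taken from a RefSeq table on build GRCm38.p6. Measurements other than the arrays were not analysed here. Alternatives to the normalization, background, filter, variance model, groups fitted, test, replicate numbers and single arrays were tried.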

Additional observations from a re-analysis of the deposited data

Results flagged for a closer look

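Slc35b4 is the 1 solute carrier of the 6 whose 5 arrays all lay on opposite sides of all Sham arrays at different times after PHx. At 4 hours they all lay below Sham, with a log2 fold change of -0.235 that was not called (limma adjusted p = 0.163). At 36 hours they all lay above Sham, with a log2 fold change of 0.591 (limma adjusted p = 9.19e-05). Both comparisons share the Sham arrays, and the difference between them was not tested. In the 30 sets of 5 arrays, no array of a solute carrier lay far enough from the other 4 to pass Dixon's critical value of 0.71.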

How the results depend on the processing

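Fold changes of the solute carriers were recomputed under quantile normalization, median centring, background correction, a filter on dim probes and another variance model. Further alternatives were the replicate block, fewer groups in the fit, the methods' t-test and each array left out. Of these 1428 fold changes, 1413 kept their direction and side of the threshold. The filter, variance model, block, fewer groups and t-test cannot alter a fold change, nor can leaving out an array of another group. In those cases only the adjusted p could move, so the tally says little of direction. The count called at 4 hours against Sham was 4 in place of 2 when only the 2 groups compared were fitted and also 4 with the methods' t-test, since Slc25a32 (adjusted p = 0.00683 and 0.013) and Slc35b4 (0.0419 and 0.0495) were then lower. Both settings also lost Slc35b4 at 12 hours over 4 hours (adjusted p = 0.0556 and 0.105). These fits gave the same fold changes with another SE. For Slc25a32 at 4 hours it was 0.136 in the fit of all arrays, then 0.068 and 0.059. For Slc35b4 at 12 hours over 4 hours it was 0.104, then 0.121 and 0.134. What else moved the calls was not tested. Slc30a5 at 72 hours over 36 hours, at -0.04 and not called, ran over -0.097 to 0.023 as single arrays were left out, never called, and was above 0 without PHx 72 h replicate 1 (0.014) or 5 (0.023). Single arrays that moved other calls are named beside them in the results.

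The labels number the replicates alike in every group and do not say that the numbers pair the livers. Of 50 same-numbered pairs, 8 had a correlation of deviations over 0.1, with a range of -0.347 to 0.46. The median was 0.003, as between other numbers, which cannot show that no livers were paired. With the replicate block no call of a single solute carrier changed. For the pair differences the block means a sign-flip test of 5 pairs, which cannot give a p below 0.0625 and so says nothing of stability. It gave 0.0625 for each of the 8, with differences for Slc30a3 minus Slc30a5 of 0.696, 0.662, 1.811 and 1.475 at 4, 12, 36 and 72 hours, and for Slc25a40 minus Slc25a32 of 0.514, 1.278, 1.928 and 1.505. The rows at hand hold 1 probe for each of the 6 genes, so no second probe could be set beside any of them.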

Other observations

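Solute carrier genes that the rule left out moved as well. Slc1a4, a neutral amino acid transporter, had 2 probes, here in the order 4, 12, 36 and 72 hours. The log2 fold changes over Sham were 0.83, -0.15, 3.50 and 2.94 on its first probe and 0.63, -0.13, 2.66 and 2.36 on the second. Its arrays overlapped with Sham at 12 hours and lay above all Sham arrays at the other times. Slc6a6 had the same order of signs, at 0.50, -0.16, 1.23 and 1.34. Slc37a4, the glucose-6-phosphate transporter of the endoplasmic reticulum, was at -0.75, -0.35, -1.18 and -1.04, of which the 12 hour value was not called (limma adjusted p = 0.063). Ostb, now named Slc51b, a subunit of a basolateral bile acid exporter, was at 0.21 and 0.20 at 4 and 12 hours, neither called, and rose by 1.43 at 36 hours (limma adjusted p = 4.4e-06) and 1.22 at 72 hours (limma adjusted p = 3.82e-05).

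In addition, 2 putative lncRNA probes of the named rows carry the name of a solute carrier gene. AK172012, listed under Slc31a1, was lower than in Sham at 4, 12, 36 and 72 hours, with log2 fold changes of -0.38, -0.45, -0.35 and -0.31. This probe was dim, with a Sham mean of 6.38 on the log2 scale. The dimmest probes, as set above, lay below 6.08 to 6.09, and its mean after PHx lay among them at all these times. Whether its signal stands above background was not tested. AK042594, listed under Slc20a1, was at -0.52, -0.11, -0.54 and -0.48, and its 12 hour value was not called (limma adjusted p = 0.463). The study lists both probes as putative lncRNAs, and whether they also detect the solute carrier mRNAs was not tested.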
